A study of Mus musculus with 4 samples.

Results

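SHP (NR0B2) is an orphan nuclear receptor that cannot bind DNA by itself and represses genes to which other proteins bring it, and FGF19 is an intestinal hormone, the human counterpart of mouse FGF15, that acts on the liver after a meal. SHP binding at 57 genes of the DNA damage response and of DNA repair was examined in mouse liver. The genes were taken from a list by function, and a peak was assigned to a gene when its interval lay within 5 kb of the annotated gene body, so 57 of the 22380 protein-coding genes of GENCODE M1 were considered. A peak was found at 20 of the 57 genes, 35.1% against 19.9% of all protein-coding genes, and these peaks were 5 of the 1508 peaks of the vehicle list and 18 of the 3155 peaks of the FGF19 list. The livers came from male wildtype C57BL/6 mice of 8 to 12 weeks that were fasted for 12 h and collected 2 h after tail vein injection of vehicle or of FGF19 at 1 mg/kg. Each group was 1 SHP ChIP-seq library with 1 input library, pooled from 3 mice. There is therefore no replicate error, and no difference between the groups could be tested against the spread between mice. After removal of duplicate tags the ChIP libraries held 15473647 tags with vehicle and 13444078 with FGF19. Whole liver holds several cell types. All 6 hepatocyte marker genes examined, among them Alb and Apoa1, had a peak in both lists, and 0 of the 9 markers of Kupffer, endothelial, bile duct and stellate cells had one in either list. Of all protein-coding genes, 4.31% had a peak in both lists and 19.9% in either. Which cells the peaks came from was not tested.

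The products of these genes detect broken or altered DNA, signal its presence and repair it. ATM and ATR are kinases that start the signal, and p53 is one of the proteins they reach. Double-strand breaks are repaired by homologous recombination or by end joining, altered bases and bulky adducts are cut out by the excision pathways, mispaired bases are removed by mismatch repair, and crosslinks between the strands need the Fanconi anaemia proteins. Most hepatocytes of the adult liver do not divide, and the recombination and mismatch pathways are best known for their work in dividing cells.

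An SHP peak within 5 kb was found at 16 of the 57 genes with FGF19, 28.1% (95% Wilson interval 18.1 to 40.8, counting error only), and at 5 with vehicle, 8.77% (3.81 to 18.9). Of all protein-coding genes, 16.3% had such a peak with FGF19 and 7.93% with vehicle. The repair genes with a peak were thus 3.20 times as many with FGF19 as with vehicle. The ratio was 2.54 for 104 other genes of the same pathways, 2.06 for all protein-coding genes and 2.09 for the peaks themselves. For the 57 genes it rested on 16 and 5 genes and depended on the rule. The counts were 9 and 5 with the FGF19 list shortened to the length of the vehicle list by q-value. They were 12 and 1 when the repair gene had to hold the nearest TSS. A peak in the FGF19 list only was found at 15 genes, 26.3% against 12.0% of all protein-coding genes. In the vehicle list only it was found at 4 genes, 7.02% against 3.62%. One gene, Ddb2, had a peak in both lists, 1.75% against 4.31%.

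The share of all genes is not like for like, because the start of a repair gene is usually CpG-rich. A start was called CpG-rich when the 501 bp centred on it held at least 50% GC and a ratio of observed to expected CpG of at least 0.6. This was so for 48 of the 57 repair genes (84.2%) and for 47.6% of all protein-coding genes. Among genes with a CpG-rich start, 27.0% of the 10654 protein-coding genes had a peak with FGF19, and 13 of the 48 repair genes did, which is 27.1%. With vehicle the values were 12.7% and 8.33% (4 genes). The FGF19 share of the repair genes therefore lay above that of all genes and next to that of genes with a like base composition. The same held for a peak in either list, found at 33.3% of the 48 genes against 33.0%. The median GC content at the start was 61.4% in the 20 genes with a peak and 59.7% in the 37 without, and 16 and 32 of them had a CpG-rich start. For Xrcc6, Fancc and Lig1 the composition was measured at the outermost annotated start, away from the TSS at the peak.

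**Figure D1:**
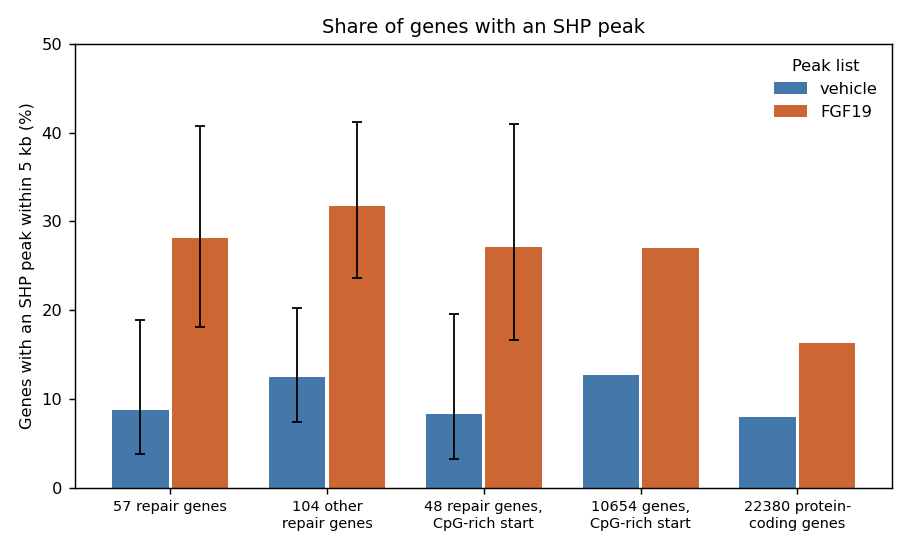
Percentage of genes with an SHP peak within 5 kb of the gene body (y axis) in the vehicle and FGF19 lists, for the repair genes in all and the 48 with a CpG-rich start, 104 other genes of the same pathways, and protein-coding genes with a CpG-rich start or in all; whiskers are 95% Wilson intervals for the gene lists. The FGF19 bar of the repair genes (28.1%) stands above that of all protein-coding genes (16.3%) and beside that of genes with a CpG-rich start (27.0%).

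The peaks were promoter peaks. All 18 FGF19 peaks and all 5 vehicle peaks had their summit within 200 bp of an annotated transcription start site (TSS), at 3 to 176 bp with FGF19 and at 24 to 161 bp with vehicle. Of all peaks, 63.5% with FGF19 and 55.2% with vehicle did. The start was not always that of the repair gene. The summit was within 1 kb of a TSS of the repair gene itself at 16 genes with FGF19 (28.1% against 12.5% of all protein-coding genes) and at 4 with vehicle (7.02% against 5.52%). For 6 of the 18 FGF19 peaks and 4 of the 5 vehicle peaks the nearest TSS belonged to a neighbour. Another gene starts on the opposite strand within 1 kb of the start of 24 of the 57 repair genes, 42.1%, against 15.7% of all protein-coding genes. Of the 24, 7 had a peak with FGF19 (29.2%) and 3 with vehicle (12.5%), against 30.1% and 15.3% of the 3524 protein-coding genes with such a start. TSSs of at least 2 genes lay within 1 kb of the summit in 8 FGF19 peaks, 44.4% against 19.0% of all FGF19 peaks, and in 3 of the 5 vehicle peaks, against 17.6% of all vehicle peaks. At these places a peak cannot be given to one gene of the pair.

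**Figure D2:**
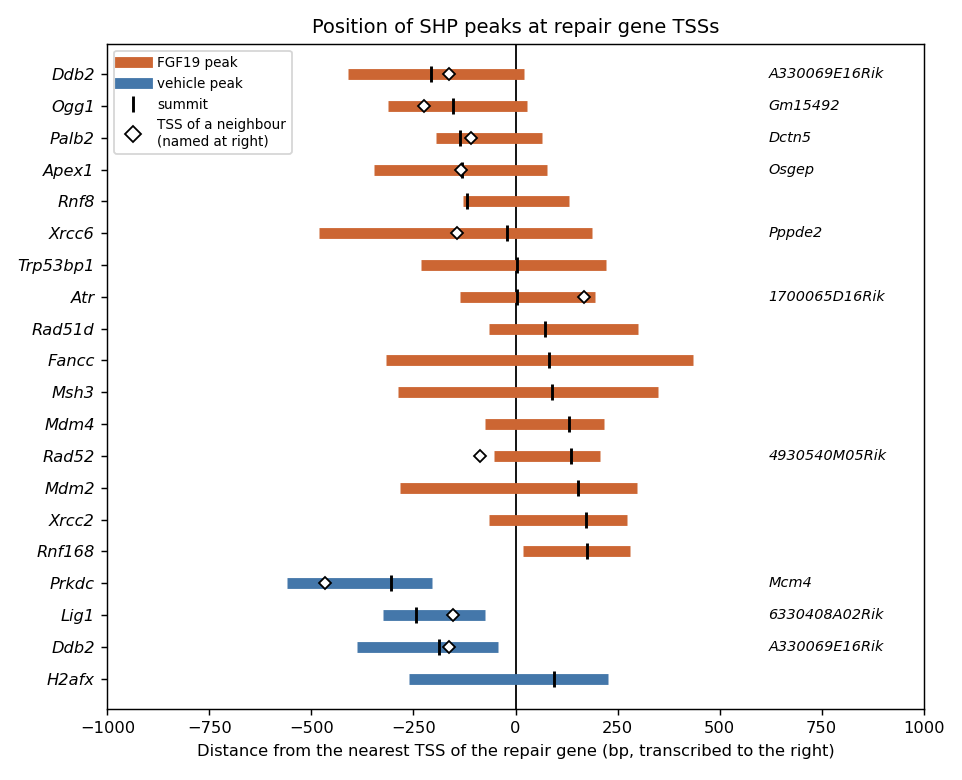
Position of each SHP peak (bar) and its summit (black tick) relative to the nearest TSS of the repair gene in bp, with transcription to the right; diamonds mark the TSS of a neighbouring gene, named at the right (not drawn for Msh3). The 16 FGF19 and 4 vehicle peaks with the summit within 1 kb of the gene's own TSS are drawn, and the summits lie on both sides of it.

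Sequences are given for a few peaks that carry the results, namely the peak with the highest fold enrichment (Trp53bp1), the gene in both lists (Ddb2), a gene of each list with several matches (Ogg1, Prkdc), the regulator of p53 (Mdm2), and the histone gene of the list (H2afx). Each is the mm9 reference on the strand of the repair gene, from a stretch of the peak outside every annotated exon. Capitals mark exact matches on either strand to the sequences given further on for SP1, NF-Y, ETS and E2F. The stretches of Trp53bp1 and H2afx hold no exact match, and close variants were not marked. H2afx and Mdm2, for example, hold the NF-Y sequence with another last base. The stretches of Ogg1 and Prkdc include the peak summit, and those of Trp53bp1, Ddb2, Mdm2 and H2afx do not. The SP1 matches in Ddb2 and Mdm2 and the ETS match in Mdm2 lie too far from the summit for the match counts given further on. These matches are therefore not part of those counts.
Trp53bp1, chr2:121097144-121097337, minus strand: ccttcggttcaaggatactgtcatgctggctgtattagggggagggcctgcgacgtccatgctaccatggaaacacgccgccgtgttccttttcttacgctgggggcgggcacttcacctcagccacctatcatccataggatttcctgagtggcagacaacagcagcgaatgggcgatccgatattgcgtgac
Ddb2, chr2:91077140-91077302, minus strand: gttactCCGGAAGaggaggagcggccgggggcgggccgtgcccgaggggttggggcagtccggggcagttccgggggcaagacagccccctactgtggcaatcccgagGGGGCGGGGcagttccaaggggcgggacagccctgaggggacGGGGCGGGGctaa
Ogg1, chr6:113276742-113276941, plus strand: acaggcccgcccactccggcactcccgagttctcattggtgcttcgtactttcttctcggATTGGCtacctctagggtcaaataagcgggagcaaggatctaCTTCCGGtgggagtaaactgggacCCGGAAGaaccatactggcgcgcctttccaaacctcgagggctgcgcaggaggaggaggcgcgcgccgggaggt
Mdm2, chr10:117147815-117148014, minus strand: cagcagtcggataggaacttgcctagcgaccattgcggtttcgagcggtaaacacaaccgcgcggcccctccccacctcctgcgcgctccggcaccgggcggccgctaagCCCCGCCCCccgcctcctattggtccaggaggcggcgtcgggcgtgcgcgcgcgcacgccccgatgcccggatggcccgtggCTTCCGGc
Prkdc, chr16:15637554-15637753, plus strand: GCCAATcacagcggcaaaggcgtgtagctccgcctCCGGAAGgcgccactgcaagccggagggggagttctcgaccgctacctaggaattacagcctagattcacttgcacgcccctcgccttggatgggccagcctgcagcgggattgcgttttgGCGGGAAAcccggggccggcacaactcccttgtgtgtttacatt
H2afx, chr9:44142598-44142797, plus strand: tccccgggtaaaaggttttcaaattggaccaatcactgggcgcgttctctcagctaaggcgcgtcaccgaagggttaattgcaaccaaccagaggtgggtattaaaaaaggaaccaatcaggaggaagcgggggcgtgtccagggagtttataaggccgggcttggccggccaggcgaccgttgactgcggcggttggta
The stretch of Ddb2 spans the gap between its start and the start of A330069E16Rik on the other strand.

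The binding at these genes was of ordinary strength. The fold enrichment, the number of tags stacked at the summit (the pileup) relative to the local input background, ranged from 3.06 to 6.46 with FGF19 with a median of 3.91, and from 3.25 to 4.84 with vehicle with a median of 3.46. The medians of all peaks were 4.05 and 4.14, and the strongest peaks of the lists reached 36.6 and 28.1. The pileup ranged from 15 to 35 tags with FGF19 and from 19 to 27 with vehicle, and its median over all peaks was 24.0 in both lists. A fold enrichment above the median of the list was found for 6 of the 18 FGF19 peaks and 1 of the 5 vehicle peaks.

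**Figure D3:**
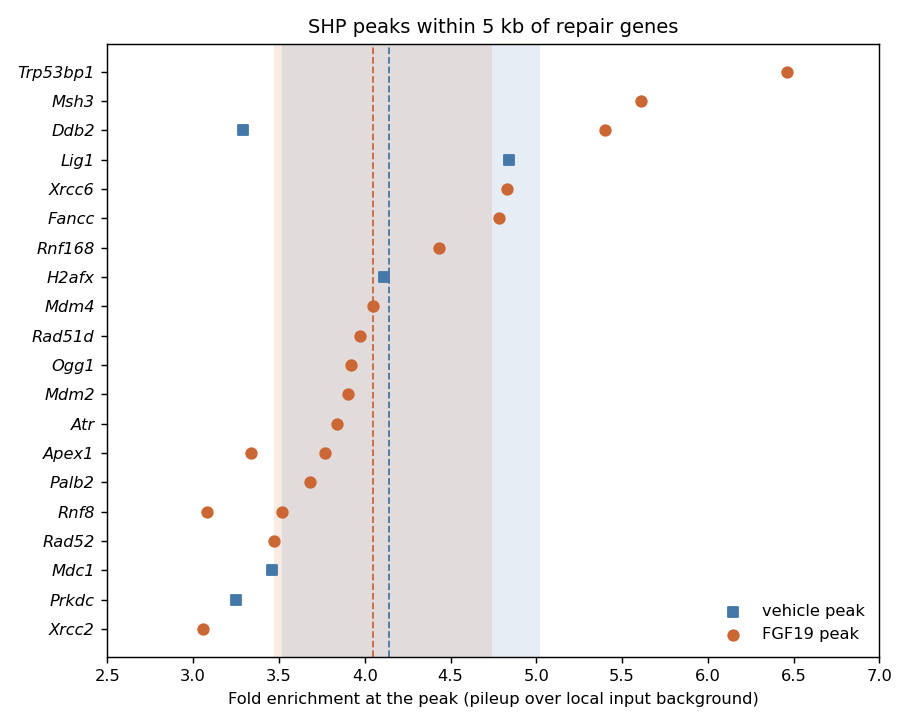
Fold enrichment (x axis) of every SHP peak within 5 kb of a repair gene (rows), with the quartiles (shading) and medians (dashed lines) of all peaks of each list. With FGF19, Trp53bp1 (6.46), Msh3 (5.61), Ddb2 (5.40), Xrcc6 (4.83) and Fancc (4.78) lie above the quartiles of their list, and the second Apex1 peak (3.34), the promoter peak of Rnf8 (3.08) and Xrcc2 (3.06) lie below. With vehicle, Mdc1 (3.46), Ddb2 (3.29) and Prkdc (3.25) lie below them. Ddb2 is the one gene with a point for each list.

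All 5 genes for marking breaks on chromatin had a peak within 5 kb, 3 with FGF19 and 2 with vehicle, and none in both lists. Of all protein-coding genes, 19.9% had a peak in either list and 4.31% in both. All 5 have a CpG-rich start, and of the protein-coding genes with such a start 33.0% had a peak in either list. Of 7 other genes for marking breaks, 4 had a peak, and the peak assigned to Mdc1 lay at the start of a neighbour. The counts by pathway that follow rest on few genes each and stand beside the same shares. Trp53bp1 encodes 53BP1, which binds marked nucleosomes beside a break. Its FGF19 peak at chr2:121096883-121097337 had a pileup of 25 tags (exact 95% Poisson interval 16.2 to 36.9, counting error only) over a local background of 3.03, and ranked 150 of 3155 by fold enrichment. By pileup alone it stood at percentile 56.1 of the list, and its high rank by fold enrichment went with a low local background. Rnf8 and Rnf168 encode the ubiquitin ligases that act in turn upstream of 53BP1. The Rnf168 peak, at chr16:32277566-32277827, reached its maximum 176 bp inside the gene, with 24 tags and a fold enrichment of 4.43. At Rnf8 the promoter peak at chr17:29751607-29751866 was one of the weaker peaks of the list, with 17 tags and a fold enrichment of 3.08. A further peak inside the annotated body of Rnf8, which is 88.6 kb long and runs over Ftsjd2, lay at the start of Ftsjd2.

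In the vehicle list a peak lay at the gene of the histone that carries the mark. The peak assigned to the gene of the reader of the mark lay at the start of a neighbour. H2afx encodes H2AX, the histone variant phosphorylated around breaks, and its vehicle peak at chr9:44142538-44143024 reached its maximum in the exon 95 bp from the TSS, with 23 tags (14.6 to 34.5) and a fold enrichment of 4.11. The nearest FGF19 peak lay 7.96 kb from the gene, outside the limit of 5 kb. MDC1 binds phosphorylated H2AX. The peak assigned to Mdc1, at chr17:35998007-35998456, lay 1392 bp beyond the end of the gene with 19 tags and a fold enrichment of 3.46. Its summit was 31 bp from the start of Nrm and 19693 bp from the nearest TSS of Mdc1, so no peak of either list was at the Mdc1 promoter.

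Of the p53 axis, the genes of both negative regulators had a peak and Trp53 itself had none. MDM2 is the ubiquitin ligase that removes p53, and MDM4 is its partner. The Mdm2 peak, in the FGF19 list at chr10:117147444-117148024, reached its maximum in an intron 227 bp from the gene start, with 21 tags and a fold enrichment of 3.90. The Mdm4 peak, at chr1:134921707-134922000, likewise reached its maximum in an intron, 148 bp from the gene start, with 25 tags and a fold enrichment of 4.05. Both values are close to the median of the list. The nearest peak to Trp53 lay 40.8 kb away in both lists. Of the 5 genes of the damage kinases, Atr alone had a peak, with FGF19, at chr9:95757984-95758313 with the summit 4 bp from a TSS, 23 tags and a fold enrichment of 3.84. Atm, Chek1, Chek2 and Atrip, which encodes the partner of ATR, had none in either list.

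Homologous recombination was represented by 4 of 9 genes, all with FGF19 only. PALB2 joins BRCA1 and BRCA2, and RAD51D and XRCC2 work together in one complex of the pathway. The fold enrichment was 3.97 at Rad51d, 3.68 at Palb2, 3.47 at Rad52 and 3.06 at Xrcc2, all below the list median of 4.05. Rad51d, annotated as Rad51l3, had the lowest pileup of the group at 15 tags (8.40 to 24.7) over a background of 3.03. The summit at Palb2 lay 137 bp upstream of its start and 29 bp inside Dctn5, its divergent neighbour. Brca1, Brca2, Bard1, Rad51c and Xrcc3 had no peak, and neither did any of the 3 genes of the MRN complex that senses broken ends, Mre11a, Rad50 and Nbn.

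Of the DNA-PK genes of end joining, Xrcc6 was assigned a peak with FGF19, Prkdc one with vehicle and Xrcc5 none. XRCC6 is the Ku70 subunit that binds broken ends, and PRKDC is the kinase subunit that Ku recruits. At Xrcc6 the FGF19 peak at chr15:81846317-81846986 reached its maximum 22 bp before a TSS, with 30 tags (20.2 to 42.8) and a fold enrichment of 4.83. The gene model of Xrcc6 also holds a transcript that starts 28512 bp upstream of this summit, where no peak lay. At Prkdc the vehicle peak at chr16:15637399-15637754 lay 205 bp outside the gene, with 24 tags and a fold enrichment of 3.25. It covered the start of Mcm4, which encodes a subunit of the replicative helicase, and the summit was 305 bp upstream of Prkdc. The other 3 genes of the group, Xrcc5 (Ku80), Xrcc4 and Lig4, had no peak.

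Base excision repair had peaks at 3 of 10 genes. OGG1 removes oxidised guanine, and APEX1 is the endonuclease that cuts the site left behind. At Ogg1 the FGF19 peak at chr6:113276653-113276993 had 33 tags (22.7 to 46.3), the second highest pileup of the group, but a fold enrichment of only 3.92 over a local background of 7.67. At Apex1 the FGF19 peak at chr14:51544296-51544721 had 29 tags and a fold enrichment of 3.77, with its summit 3 bp from the start of Osgep, which is divergent from Apex1. A further FGF19 peak lay 3474 bp beyond the end of Apex1, at the start of Tmem55b, and was the assigned peak farthest from its gene. LIG1 is the ligase that seals nicks in replication and long-patch repair. The Lig1 peak, with vehicle only, at chr7:13863840-13864090, was the strongest vehicle peak of the group with 27 tags (17.8 to 39.3) and a fold enrichment of 4.84. Its nearest TSS, 91 bp away, was that of 6330408A02Rik. The genes without a peak were Xrcc1, Lig3, Parp1, Parp2, Mutyh, Ung and Polb.

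Ddb2 was the single gene of the group with a peak in both lists, and the single gene of the 9 for nucleotide excision repair with any peak. DDB2 recognises ultraviolet lesions in chromatin. The vehicle peak, chr2:91077181-91077527, lay within the FGF19 peak, chr2:91077117-91077549, with the summits 20 bp apart. The pileup was 25 tags with vehicle (16.2 to 36.9) and 24 with FGF19 (15.4 to 35.7), a ratio of 0.960, or 1.10 after scaling each pileup to the tags kept in its library. The fold enrichment was 3.29 in the vehicle list and 5.40 in the FGF19 list, a ratio of 1.64. The local background was 6.91 with vehicle and 3.63 with FGF19. The pileups thus differed by less than counting error. The higher fold enrichment with FGF19 went with a lower local input background. The other 8 genes, Ddb1, Xpa, Xpc and Ercc1 to Ercc5, had no peak in either list.

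**Figure D4:**
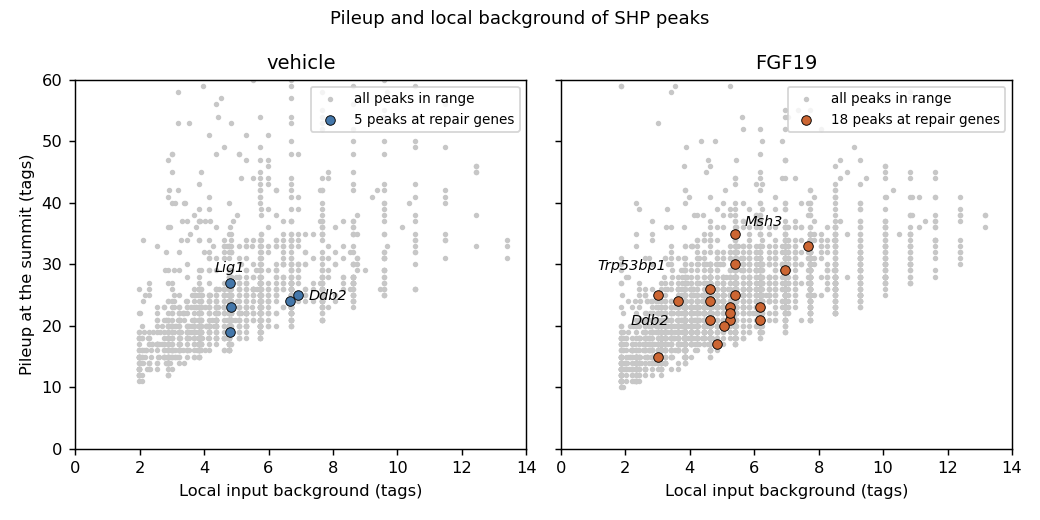
Pileup at the summit against local input background, both in tags, for the peaks at repair genes (coloured) and for all other peaks with a background up to 14 and a pileup up to 60 (grey; 69 vehicle and 52 FGF19 peaks lie outside). Ddb2 has nearly the same pileup in both panels (25 and 24) and a lower background with FGF19 (6.91 and 3.63).

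Of the mismatch repair genes, Msh3 had a peak and Msh6 and Pms2 had none. MSH3 forms the dimer that recognises loops of several bases. Its FGF19 peak at chr13:93124603-93125238 had the highest pileup of the group, 35 tags (24.4 to 48.7), a fold enrichment of 5.61 and rank 315 of 3155. It reached its maximum 96 bp from the gene start in an exon. Of the 5 Fanconi anaemia genes, Fancc had a peak, with FGF19, at chr13:63532556-63533308. With 26 tags, its fold enrichment was 4.78. An internal TSS was 81 bp from the summit, and the outermost start of the gene 65676 bp. Fanca, Fancd2, Fancg and Fanci had none within 5 kb. The nearest outside the limit was an FGF19 peak 7.77 kb from Fancd2.

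Peaks at the 57 genes were shared between the lists at 1 gene, Ddb2. An overlapping vehicle peak was found for 1 of the 18 FGF19 peaks, 5.56%, against 21.8% of all FGF19 peaks and 18.0% of those with a summit within 200 bp of a TSS. An overlapping FGF19 peak was found for 1 of the 5 vehicle peaks, 20.0%, against 45.5% and 43.3%. At the 104 other genes of the same pathways, 6 of 38 FGF19 peaks (15.8%) and 6 of 13 vehicle peaks (46.2%) were overlapped. The shares at the 57 genes thus rest on few peaks and were not seen in the like genes. A peak in one list only passed the q-value cutoff of 0.05 in that group. Signal below the cutoff in the other group was not analysed here.

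Exact matches to short sequences were counted on both strands within 100 bp of each summit. The E2F sequence, TTTCCCGC or TTTGGCGC, is bound by the factors that drive genes for S phase. It was found at 3 of 18 FGF19 peaks, 16.7% against 1.91% of all FGF19 peaks, and at 1 of 5 vehicle peaks, 20.0% against 1.39%. At the gene starts it was in 6 of 57 repair genes, 10.5% against 1.31% of 22367 protein-coding genes, and it was in 4 of the 37 genes without a peak (10.8%) and 2 of the 20 with one (10.0%). All 4 matches at summits were of the form TTTCCCGC and are given in capitals with 10 bases on each side, on the strand of the match.
Prkdc, chr16:15637700-15637727, minus strand: cggccccgggTTTCCCGCcaaaacgcaa
Xrcc6, chr15:81846743-81846770, minus strand: cccactcgcaTTTCCCGCttccaccccc
Msh3, chr13:93124831-93124858, plus strand: ccgacgcggaTTTCCCGCggggcattgc
Fancc, chr13:63532987-63533014, plus strand: tgtttggaatTTTCCCGCggccgcaagg
They began 21 to 87 bp from the summit. At Prkdc the match lay at the divergent promoter that the gene shares with Mcm4.

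The other sequences were found at few of the peaks. The ETS core CCGGAAG was at 3 of 18 FGF19 peaks, Ddb2, Ogg1 and Palb2, 16.7% against 9.72% of all FGF19 peaks, and at 2 of 5 vehicle peaks, Ddb2 and Prkdc, against 7.82% of all vehicle peaks. The NF-Y sequence ATTGGC was at 3 FGF19 peaks, 16.7% against 11.1%, and the SP1 sequence CCCCGCCCC at 1, 5.56% against 14.8%. At the gene starts the SP1 sequence was not scarce, with 10 of 57 repair genes, 17.5% against 11.9% of all protein-coding genes. The ETS core was in 11 of these starts, 19.3% against 9.39%, and the NF-Y sequence in 10, 17.5% against 12.0%. The YY1/SRE core AANATGGC was at 0 of 18 FGF19 peaks, against 7.56% of all FGF19 peaks. It was also at 0 of the 57 gene starts, against 5.72% of all protein-coding genes. As a rough upper limit, 3 divided by the number examined is 16.7% for the peaks and 5.26% for the gene starts. This rule is not the Wilson interval used above, and 5.26% is too close to 5.72% to show a shortage. The nuclear receptor site AGGTCA was at 0 of the 18 FGF19 and 0 of the 5 vehicle peaks, against 7.15% and 9.08% of all peaks. Farther from the summit, and so not counted, it lay inside the FGF19 peaks of Rad51d and Fancc. The NRF1 sequence and the CRE TGACGTCA were at 0 of the 18 FGF19 and 0 of the 5 vehicle peaks, and at 1.33% and 1.87% of all FGF19 peaks. In 10 of the 18 FGF19 peaks none of the sequences was found as an exact match, and close variants were not counted.

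A longer list of 104 other genes of the same pathways was examined in the same way. Of these, 33 had a peak with FGF19, 31.7% (23.6 to 41.2), and 13 with vehicle, 12.5% (7.45 to 20.2), and 7 had one in both lists, 6.73%. The shares of all protein-coding genes were 16.3%, 7.93% and 4.31%. Among the 84 of these genes with a CpG-rich start, 35.7% (26.3 to 46.4) had a peak with FGF19 and 15.5% (9.27 to 24.7) with vehicle, against 27.0% and 12.7% of all genes with such a start. With FGF19 the highest fold enrichment was at Rad17, which encodes the loader of a checkpoint clamp, and with vehicle at Timeless (5.59, against 2.92 with FGF19). Rad17 had a peak in both lists at the start it shares with Taf9. The vehicle peak reached a fold enrichment of 5.19 and the FGF19 peak 8.35. As at Ddb2, the pileup hardly differed, 39 tags with vehicle (27.7 to 53.3) and 36 with FGF19 (25.2 to 49.8), and the local background was 6.70 and 3.43. At Rev3l, the catalytic subunit of a translesion polymerase, the peak was at the start of the divergent E130307A14Rik, with a fold enrichment of 5.58 with vehicle and 6.98 with FGF19. A further FGF19 peak, with 18 tags and a fold enrichment of 3.77, had its summit 95 bp from the TSS of Rev3l itself. Bre had a peak in both lists at the start it shares with Rbks on the other strand, with a fold enrichment of 3.02 and 3.92. The remaining genes in both lists had peaks closer to a neighbour, except for FGF19 at Fance. At Bax the vehicle peak and 1 of 3 FGF19 peaks lay at the start of Ftl1, and the other FGF19 peaks had AC151602.1 as the nearest TSS. The peaks at Gtf2h1 lay near Hps5 and those at Timeless near Apon, and Fance had a vehicle peak at the start of Rpl10a and an FGF19 peak at its own. The next highest fold enrichments were at Uimc1 (5.83 at the start of Zfp346, beside 4.32 at its own start) and Smc5 (5.21) with FGF19, and at Gtf2h3 (4.97, near Tctn2) and Rfc5 (4.15) with vehicle.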

How the data were processed

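Bowtie 1.0.0 was used by the authors to align reads to mm9 with up to 2 mismatches, and MACS2 2.0.10.20130501 to call peaks in each pooled library against its input, with a q-value cutoff of 0.05 and duplicates limited to 1 tag per position. The deposited signal is the pileup of unscaled ChIP tags. The deposited fold enrichment is a ratio of pileup to local input background. The deposited -log10 q-value is as the peak caller gave it. ChIP libraries held 15473647 tags with vehicle and 13444078 with FGF19 after filtering. The starting point here was these lists. The local background was worked out as (pileup + 1) / fold enrichment - 1.

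Peaks were related to GENCODE M1 (mm9) by gene body and by the TSSs of 95495 transcripts. Of 57 genes, 56 matched by symbol and 1, Rad51d, by a RefSeq synonym. Every gene of the list with a peak is named, and a neighbour of Msh3 is not reported here. The genes and lists were chosen with earlier results of these data known. With 1 library per group no test was run. Wilson and Poisson 95% intervals cover counting error only. Alternatives covered the distance, the assignment rule, the thresholds, the list length and the annotation. The distance and overlap functions gave the planted answer in 5 of 5 checks on simulated data. Intervals came from scipy 1.17.1, tables from pandas 2.3.3, sequence from pyfaidx 0.9.0.4 and plots from matplotlib 3.10.9, under Python 3.11.15 with numpy 2.4.6.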

Additional observations from a re-analysis of the deposited data

How the results depend on the processing

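No paired analysis was possible because each group is 1 pooled library, and for the same reason no library could be left out. With a -log10 q-value of at least 5, the repair genes with a peak were 9 with FGF19 and 2 with vehicle, that is 9 with FGF19 only, 2 with vehicle only and 0 in both lists, where 9.08% and 4.12% of all protein-coding genes had a peak with FGF19 and vehicle. The other repair genes were then 17 and 7, and 0 peaks at repair genes overlapped between the lists. With a fold enrichment of at least 4, the repair genes were 7 with FGF19 and 2 with vehicle, that is 7 and 2 in one list only and 0 in both, and the other repair genes 18 and 5 (all protein-coding genes 8.61% and 4.27%). With the FGF19 list shortened to the length of the vehicle list, 9 repair genes had an FGF19 peak, 8 of them in that list only, and 16 other repair genes did, while all protein-coding genes fell to 8.06%. With the peak required to overlap the gene body, vehicle peaks were left at 2 repair genes, both in that list only (0 in both lists), and at 5 other repair genes (all protein-coding genes 5.67%). When the repair gene had to hold the nearest TSS, vehicle peaks were left at 1 gene, in that list only (0 in both lists), and at 5 other repair genes, and 12 genes had an FGF19 peak (all protein-coding genes 5.05% and 11.3%). Within 10 kb, 18 repair genes had a peak with FGF19 and 5 with vehicle, where 18.9% and 9.32% of all protein-coding genes did. At this distance 2 repair genes had a peak in both lists, and the share of all genes in both lists was not worked out. The vehicle peaks at repair genes stood at 0.835 of the list median by fold enrichment at 0.709 by -log10 q-value and at 1.00 by pileup per tags kept. The FGF19 count of 16 was unchanged at 0 kb and 1 kb, where 12.5% and 14.2% of all protein-coding genes had an FGF19 peak. It was also unchanged with the summit within 1 kb of the gene's own TSS (all genes 12.5%) and with protein-coding transcripts (16.2%). The comparison with CpG-rich starts was chosen after seeing the data, as was that without divergent starts. Of the 33 repair genes without a divergent start, 27.3% had a peak with FGF19 and 6.06% with vehicle. Of all protein-coding genes, with or without such a start, 16.3% and 7.93% did. The share of all genes without one was not worked out here.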

Other observations

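The genes named here were chosen after their values were seen, from the list of other repair genes. Of 11 p53 targets and regulators, 5 had an FGF19 peak and 2 a vehicle peak, where 16.3% and 7.93% of all protein-coding genes did. Among all genes with a CpG-rich start the shares were 27.0% and 12.7%. Bax is counted in both lists, though no peak lay nearer its TSS than 6859 bp. At Bbc3, which encodes the pro-apoptotic protein PUMA, the FGF19 peak had its summit 304 bp upstream of a TSS, with 20 tags and a fold enrichment of 3.72. At Sesn1 it had 32 tags and a fold enrichment of 4.31, and at Ppm1d, the phosphatase that ends the damage signal, 19 tags and 4.32. Usp7, which encodes the deubiquitinase of MDM2 and p53, had a fold enrichment of 4.93 with 23 tags. Gadd45g had its peak with vehicle only, with 21 tags and a fold enrichment of 3.26. Cdkn1a, a classical p53 target, had none in either list.

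Each of the 3 genes of the checkpoint clamp, Rad9, Rad1 and Hus1, had an FGF19 peak within 5 kb, where 16.3% of all protein-coding genes did. Rad1 and Hus1 had the summit 45 bp and 6 bp from their own TSS, with a fold enrichment of 4.10 and 3.49. The Rad9 peak lay at the start of Ppp1ca, 9578 bp from the TSS of Rad9. Of 12 genes for translesion synthesis and direct reversal, 4 had an FGF19 peak, against the same share of all genes. Among them were Rev1 (4.16), Polh (3.93, at the start it shares with Xpo5) and Shprh (5.14). None of the 4 other end-joining genes had a peak in either list, where 19.9% of all protein-coding genes did.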
